A study of Mus musculus with 16 samples.

Results

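Interferon response genes are the genes that a cell switches on when interferon binds its receptors. The 48 genes described here were chosen by name, with earlier results of these data known. They are 48 of the 48709 gene identifiers in the count table, and each matched 1 identifier. They were followed in liver and heart of 8 untreated female C57BL/6J mice of 3 to 6 months. The wild type (WT) group held 4 of these mice, and 4 were quadruple knockouts (QKO), in which Msra, Msrb1, Msrb2 and Msrb3, the genes of the methionine sulfoxide reductases, had all been targeted. Both tissues were taken from each mouse, which gave 16 libraries in 4 groups of 4 (WT liver, QKO liver, WT heart and QKO heart). No group had been given interferon or an infection, so the values are resting levels. The labels name no allele beyond the knockout of each gene, and no promoter or Cre line.

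Type I interferons signal through IFNAR1 and IFNAR2 to a complex that holds STAT2 and IRF9 and binds the interferon-stimulated response element (ISRE) of its target genes. Interferon gamma signals through IFNGR1 and IFNGR2, acts on genes with a gamma-activated site (GAS) and induces IRF1. Many targets are antiviral: sensors of foreign RNA and DNA, the 2'-5' oligoadenylate synthetases (OAS), the IFIT proteins, Mx GTPases and the ubiquitin-like ISG15. Others are guanylate-binding proteins (GBP) and immunity-related GTPases (IRG), which act on vacuoles that hold pathogens. A low, tonic level of the pathway is known in healthy tissue.

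The binding sites that define the pathway were looked up first, to see how many of these genes hold them. RefSeq promoter windows of 300 bases (250 before and 50 after the gene start, GRCm38.p6) were matched for 36 of the 48 genes, the others being Dhx58, Zbp1, Usp18, Oas2, Mx1, Mx2, Ifi27, Rtp4, Gbp6, Iigp1, Parp9 and Parp14. The ISRE core was searched as GAAANNGAAA on both strands. It was in a window of 20 of the 36 genes (55.6%), against 3.99% of all 27025 genes with a window. GAS was searched as TTCNNNGAA on both strands and was in 9 of the 36 (25.0%), against 9.55% of all genes. Bst2, Eif2ak2, Gbp7, Igtp, Irgm2 and Oas1a held both motifs, and 13 genes held neither in this window. A match describes these letters only. The following ISRE sites are shown for how the core repeats, with 5 flanking bases in lower case and the core in capitals, on the strand on which it reads as spelled, and the coordinates cover the capitals.
Isg15 (chr4:156200875-156200896): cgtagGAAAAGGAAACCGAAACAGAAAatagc
Bst2 (chr8:71537587-71537602): tccagGAAAATGAAACTGAAAggctg
Irgm1 (chr11:48871435-48871450): ttcaaGAAATAGAAACCGAAActgat
Gbp3 (chr3:142559999-142560014): tctggGAAATAGAAACTGAAActgtg
Oas1a (chr5:120907530-120907545): ctcggGAAATGGAAACTGAAAatcta
Ifit1 (chr19:34640785-34640794): gactgGAAAGTGAAActgaa
Rsad2 (chr12:26456563-26456572): tttctGAAAATGAAAgttgg

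The site of Isg15, the ubiquitin-like modifier, held 3 overlapping cores, and those of Bst2, Irgm1, Gbp3 and Oas1a held 2. Ifit1 had a second core outside the one shown. Neighbouring members shared whole sites. The next lines are shown because the letters are the same in both genes of each pair.
Ifit3 (chr19:34583373-34583382): aagagGAAAGTGAAActtac
Ifit3b (chr19:34607769-34607778): aagagGAAAGTGAAActtac
Ifit3 (chr19:34583407-34583416): aagtaGAAACTGAAAcagac
Ifit3b (chr19:34607803-34607812): aagtaGAAACTGAAAcagac
Igtp (chr11:58199522-58199531): gaactGAAACTGAAAgctgt
Irgm2 (chr11:58214913-58214922): gaactGAAACTGAAAgctgt

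Ifit3 and Ifit3b lie beside each other on chromosome 19 and had both 20-base stretches in common. Igtp and Irgm2 lie on chromosome 11, where their annotated gene bodies overlap on the same strand over 7974 bp, and shared their 20-base ISRE stretch. The GAS sites below are shown for the interferon gamma arm of the pathway, again with the motif in capitals.
Irf1 (chr11:53769924-53769932): ctgatTTCCCCGAAatgat
Igtp (chr11:58199511-58199519): gccatTTCTAGGAActgaa
Irgm2 (chr11:58214902-58214910): gccatTTCCAGGAActgaa
Bst2 (chr8:71537600-71537608): gggcaTTCCAGGAAaatga

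The 150 bases before the start of Isg15 (chr4:156200819-156200968), Bst2 (chr8:71537473-71537622) and Rsad2 (chr12:26456453-26456602), all 3 on the minus strand of GRCm38, are given with the ISRE core in capitals. They are shown because these genes share the element, while Isg15 and Bst2 were lower in heart than in liver and Rsad2 was higher. Rsad2 carried its core in the reverse direction, so that it reads here as the reverse complement.
Isg15: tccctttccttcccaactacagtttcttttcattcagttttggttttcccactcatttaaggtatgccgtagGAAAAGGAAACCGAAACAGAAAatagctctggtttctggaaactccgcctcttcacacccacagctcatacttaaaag
Bst2: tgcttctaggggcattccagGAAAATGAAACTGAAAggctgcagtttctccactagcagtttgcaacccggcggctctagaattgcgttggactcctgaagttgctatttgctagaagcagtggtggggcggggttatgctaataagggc
Rsad2: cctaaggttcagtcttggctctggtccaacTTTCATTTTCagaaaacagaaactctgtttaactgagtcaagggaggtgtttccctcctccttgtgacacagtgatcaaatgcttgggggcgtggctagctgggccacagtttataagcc

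Counts of the 48 genes summed to between 37439 and 64598 per liver library and between 5035 and 25093 per heart library. Total counts ranged from 37.9 M to 67.9 M over the liver libraries, and over the heart libraries from 42.1 M to 72.6 M. The knockout labels were checked on the targeted genes. Msrb2 was at 2.52 to 6.24 CPM (counts per M of scaled library size, all 16 libraries on 1 scale) in WT liver and 0 to 0.0460 CPM in QKO liver, and at 12 to 14.6 against 0.116 to 0.230 CPM in heart. Msrb3 was at 7.78 to 10.8 against 1.68 to 3.07 CPM in liver and at 46.4 to 50.3 against 7.43 to 8.69 CPM in heart. Msra was at 48.3 to 61.5 against 31 to 36.2 CPM in liver and 9.40 to 11.3 against 6.78 to 7.66 CPM in heart. Msrb1 overlapped in liver, at 82.4 to 106.6 against 63.4 to 103 CPM, and in heart was the higher in QKO, at 13.8 to 16.1 against 18.5 to 23.7 CPM. The deleted stretch of each gene is not given in the sources used here, and counts outside it check nothing. Hepatocyte markers summed to 25557 to 37750 CPM in liver and 45.0 to 278 in heart, and cardiomyocyte markers to 15764 to 19366 CPM in heart and 8.09 to 35.2 in liver. A few libraries stood apart. Nuclear ribosomal RNA took 31.3% to 56.8% of counts in 6 heart libraries, 7.20% in WT heart 4 and 0.139% in QKO heart 4. Acinar cell transcripts of the pancreas reached 352 CPM in WT liver 3 and 99.8 CPM in WT liver 4, against 0.517 to 1.61 CPM in the other livers. P-values set a difference against the spread between the libraries of a group, each from a different mouse. That spread includes such differences in content. The main fits did not use the pairing of liver and heart by mouse.

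All 48 genes had counts in all 16 libraries, at low levels. In WT liver 45 of them had a mean of 1 CPM or more, in QKO liver 43, in WT heart 39 and in QKO heart 38. Compared between genes on the scale of CPM per kb of exon, 3 genes stood above the rest in WT liver. Bst2 (tetherin, which holds budding virus at the cell surface) had a level of 60.0 ± 14.6 CPM per kb (SD, n = 4). Iigp1, an IRG GTPase, had 34.3 ± 4.35 CPM per kb, and Ifi27, a small membrane protein induced by type I interferon, 26.2 ± 6.00 CPM per kb. The next were Igtp (8.45 ± 0.442), Ifi35 (6.86 ± 1.61) and Lgals3bp (6.72 ± 0.410 CPM per kb), and the median over the 48 genes was 2.22 CPM per kb. The ranges of Bst2 (43.1 to 76.7) and Iigp1 (30.6 to 39.5) did not overlap in WT liver, while those of Iigp1 and Ifi27 (19.7 to 33.7) did. QKO liver had the same 6 genes in the same order. In WT heart Bst2 (3.91 ± 0.939), Ifi27 (3.83 ± 0.392), Iigp1 (3.82 ± 0.469) and Gbp2 (3.71 ± 0.722 CPM per kb) were level with each other within their spread. Lgals3bp (2.87 ± 0.777) came next with a range that overlapped theirs, and Ifi35 (2.35 ± 0.332) lay below all 4 without overlap. The median over the 48 genes was 1.11 CPM per kb. Oas3 was lowest per kb in all 4 groups, at 0.0280 to 0.150 CPM per kb. As a share of the summed CPM of the 48 genes, Iigp1 alone took 27.7% in WT liver and 9.36% in WT heart.

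Most of the genes were lower in heart than in liver. In WT mice 36 of 48 were lower and 5 were higher at an adjusted p under 0.05 (edgeR quasi-likelihood test, Benjamini-Hochberg over all genes tested). These are 75.0% and 10.4% of the genes, against a background of 36.9% lower and 35.6% higher among all 18204 genes tested. The median log2 difference, heart minus liver, was -1.23 over the 48 genes and -0.02 over all genes. The QKO mice, which the first test did not use, gave 37 lower and 6 higher (77.1% and 12.5%), against a background of 37.1% and 37.2%, with a median of -1.43. In both genotypes 36 genes were lower, 5 were higher and 0 went opposite ways. The scatter of tissue differences shows the genes along the diagonal.

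**Figure D1:**
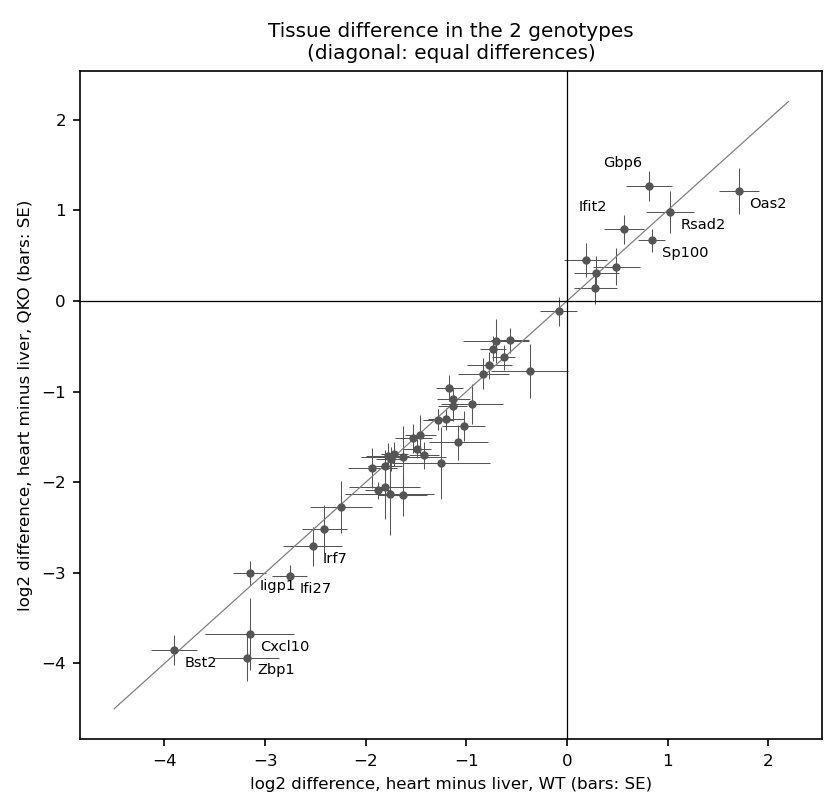
Log2 difference of heart minus liver for each of the 48 genes in WT (horizontal axis) and QKO mice (vertical axis), with bars of 1 SE and a diagonal of equal differences. Most points lie in the lower left, near the diagonal, with Bst2 at -3.91 and -3.85, and Oas2, Rsad2, Sp100, Gbp6 and Ifit2 lie in the upper right.

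The transcription factors and sensors were all lower in heart. Irf7, the factor that amplifies interferon production, had 19.0, 16.4, 10.1 and 21.6 CPM in WT livers 1 to 4 and 2.96, 2.32, 1.66 and 4.23 CPM in the WT hearts. These do not overlap, and the log2 difference was -2.53 (SE 0.30, edgeR adjusted p = 1.48e-05). Stat2, Irf9 and Irf1 followed with -1.75, -1.28 and -1.17. Of the 5 sensors, Zbp1, a sensor of Z-form nucleic acid, differed most. Zbp1 was at 5.26, 4.63, 3.00 and 4.43 CPM in WT livers and 0.239, 0.332, 0.459 and 0.726 CPM in WT hearts, a log2 difference of -3.18 (SE 0.32, edgeR adjusted p = 4.26e-06). The RNA sensors Dhx58 (-2.41), Ifih1 (-1.78) and Ddx58 (-1.14) and the ligase Trim25 (-1.13) were lower as well. Isg15 and its protease Usp18 were also lower, at -1.63 each in WT and at -1.73 and -2.14 in QKO. The WT heart values of Isg15 rest on 10, 3, 3 and 47 counts.

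The largest differences in WT were those of Bst2, Zbp1, Iigp1 and Cxcl10, followed by Ifi27 and Irf7. Bst2 had 60.0, 48.7, 38.9 and 69.2 CPM in WT livers and 3.15, 2.74, 3.53 and 4.71 CPM in WT hearts. The means were 15.4-fold apart, and the log2 difference was -3.91 (SE 0.23, edgeR adjusted p = 4.84e-08). Iigp1 had 211, 180, 230 and 178 CPM in WT livers against 21.7, 18.7, 25.0 and 23.6 CPM in hearts, a log2 difference of -3.15 (SE 0.17, edgeR adjusted p = 2.47e-08). Cxcl10, a chemokine that draws T cells, was at 1.02, 0.781, 1.13 and 1.96 CPM in livers and 0.0353 to 0.215 CPM in hearts. Its heart values rest on 1 to 12 counts per library. Ifi27 had 49.5, 40.7, 28.8 and 34.8 CPM in livers against 5.37, 5.56, 5.12 and 6.44 CPM in hearts, with -2.76 (SE 0.17, edgeR adjusted p = 8.55e-08). Cxcl9, another T cell chemokine, and Tap1, the peptide transporter of antigen presentation, had -1.81 and -1.46. All 3 genes of the PARP9, DTX3L and PARP14 group, which modify proteins by ADP-ribose or ubiquitin, were lower, from -1.88 for Parp9 to -0.63 for Parp14.

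A small set ran the other way, and it came from different families. Oas2, an enzyme that makes the activator of RNase L, was at 0.839, 0.781, 0.885 and 1.15 CPM in WT livers and 3.27, 2.61, 2.47 and 3.40 CPM in WT hearts, a log2 difference of 1.71 (SE 0.20, edgeR adjusted p = 1.43e-05). Its relatives Oasl1 (-2.25), Oas3 (-1.76) and Oas1a (-1.08) were lower in heart, and Oasl2 (0.28, adjusted p = 0.247 by edgeR) passed in neither direction. Rsad2 (viperin) makes an antiviral nucleotide from CTP and had 4.50, 3.16, 2.27 and 2.96 CPM in livers against 5.08, 5.64, 5.83 and 9.07 CPM in hearts. All WT hearts were above all WT livers, with a log2 difference of 1.02 (SE 0.24, edgeR adjusted p = 0.00257). Cmpk2, the nucleotide kinase encoded next to it on chromosome 12, had 0.49 in WT (adjusted p = 0.0786) and passed with the animal as a block (adjusted p = 0.0392, both edgeR). Sp100, a nuclear body protein, was higher by 0.84 and Gbp6 by 0.81. The annotated body of Gbp6 overlaps Gm43302 on the same strand over 22994 bp, so its counts are uncertain. Ifit2 was higher by 0.57 (edgeR adjusted p = 0.0234), but 6 of 17 other settings ended that call. Among these the fit without WT heart 4 was counted again under another name. Its adjusted p was 0.0529 to 0.0596 with WT liver 2, WT liver 3, WT heart 3 or WT heart 4 left out, and 0.133 with WT livers 3 and 4 both left out. Its relatives Ifit1 (-0.83) and Ifit3 (-0.94) were lower. In the IRG and GBP family, Igtp (-1.81), Irgm1 (-1.72), Irgm2 (-1.03), Gbp3 (-0.77) and Gbp7 (-0.57) were lower, and Gbp2 (0.29, adjusted p = 0.262 by edgeR) did not pass. Single libraries also decided some of the lower calls. Mx1, at -1.26 (edgeR adjusted p = 0.0368) on 2 to 44 counts per WT heart, lost its call without WT liver 1, 2 or 4 or WT heart 2 or 3, with adjusted p up to 0.0780. Ifit3 lost it without WT liver 1 (adjusted p = 0.0504) and Gbp7 without WT heart 2 (adjusted p = 0.0586, both edgeR). The plot of single genes shows the levels by library.

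**Figure D2:**
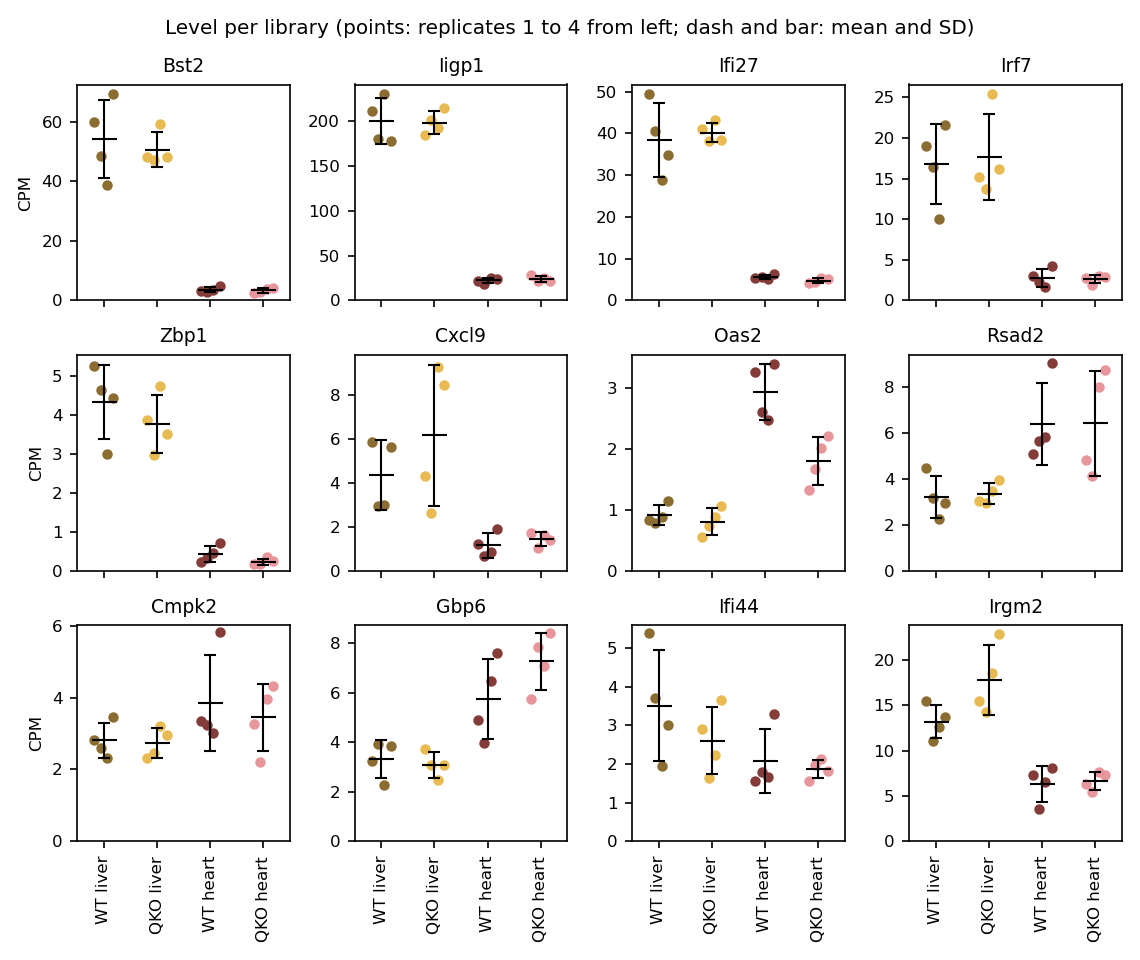
CPM (vertical axes, from 0) of 12 genes in the 4 groups, with 1 point per library, a dash for the mean and a bar for the SD. Bst2, Iigp1, Ifi27, Irf7 and Zbp1 sit lower in heart, Oas2, Rsad2 and Gbp6 sit higher, and in Oas2 the 4 QKO hearts (1.33 to 2.21) lie below the 4 WT hearts (2.47 to 3.40).

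The genes left over were few. Ifit3b and Xaf1 passed in QKO alone, and Oasl2, Cmpk2, Ifi44, Trim30a and Gbp2 in neither genotype, and these were named after their values were seen. Ifit3b had -0.37 in WT and -0.77 in QKO, and Xaf1 0.19 and 0.45. The test of the difference between genotypes passed for neither (adjusted p = 1.00 for both by edgeR), and Xaf1 lost its call with the animal as a block (adjusted p = 0.0535) and without any 1 of 7 QKO libraries, QKO liver 1 being the exception. Ifit3b lost its call without QKO liver 1 or 4 or QKO heart 1, 2 or 3 (edgeR adjusted p = 0.0505 to 0.0937). The tissue difference was also set beside the ISRE core, with no test. The 20 genes that held it had a median of -1.05 in WT and -1.27 in QKO, with 18 below 0 in each. The 16 that did not had medians of -1.19 in both, with 11 below 0 in each. Cell type markers moved with the tissue too. In WT all 12 macrophage and Kupffer cell markers were lower in heart (all genes 36.9%, median -1.74). They summed to 389 to 623 CPM in WT liver and 114 to 142 CPM in WT heart. T and NK cell markers had 5 of 9 lower (median -2.11), and B and plasma cell markers 6 of 8 (median -2.49), with 0 higher. Plasmacytoid dendritic cell and neutrophil markers had 1 of 3 and 0 of 2 lower. Endothelial markers had 5 of 6 higher (all genes 35.6%, median 1.49). The part of these cell types in the result was not tested. In bulk tissue, fewer cells of a type and less RNA per cell cannot be told apart.

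In QKO liver 0 of the 48 genes passed the threshold in either direction, against a background of 0.0846% of all 17738 genes tested. Of the 48 genes, 1 (2.08%) had an unadjusted edgeR p under 0.05, against 3.29% of all genes. DESeq2 and limma-voom called 0 as well, each with 1 at an unadjusted p under 0.05 (share of all genes not counted). The log2 changes, QKO over WT, ran from -0.46 to 0.50 with a median of -0.06 (all genes -0.01), with 17 above and 31 below 0. The median SE of a gene was 0.20. In 0 genes were the WT and QKO livers apart, against a background of 1.05% of genes higher and 1.07% lower. The plot of changes shows each gene with its SE.

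**Figure D3:**
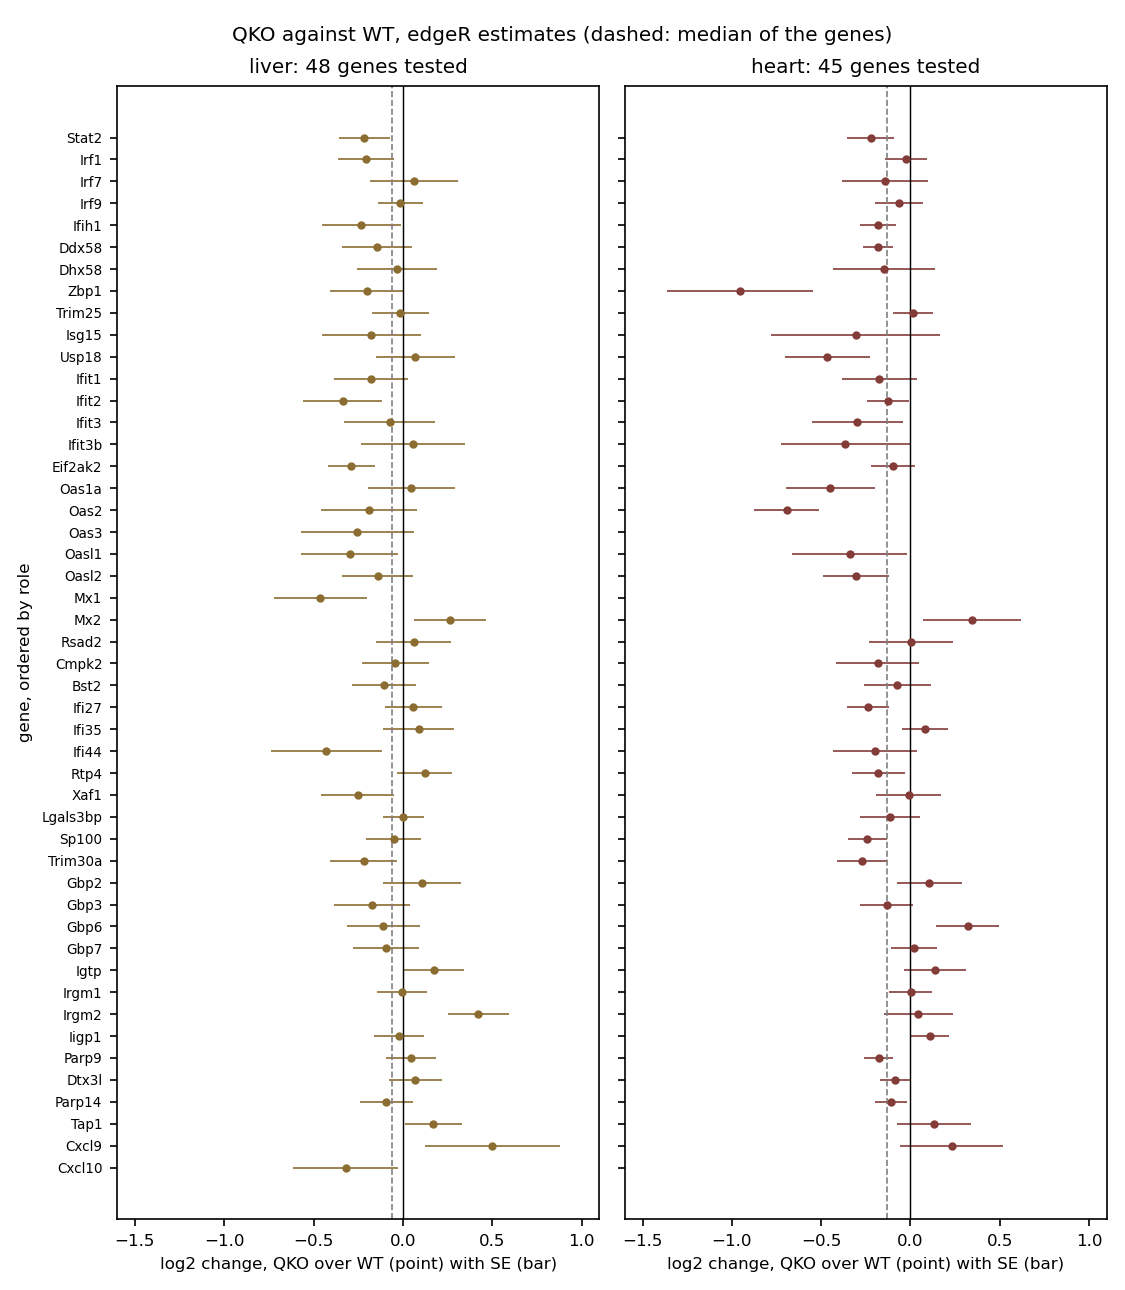
Log2 change of QKO over WT (points) with 1 SE (bars) for each gene in liver (left, 48 tested) and heart (right, 45 tested), ordered by role, with the median as a dashed line. Most bars cross or lie near 0, and Oas2 (-0.69) and Zbp1 (-0.95) in heart are the farthest below it.

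The gene with the lowest p in liver was Irgm2, an IRG GTPase. It had 15.5, 11.1, 12.6 and 13.7 CPM in WT livers and 15.5, 14.3, 18.5 and 22.9 CPM in QKO livers. QKO livers 3 and 4 lay above all others and the groups overlapped, with a log2 change of 0.42 (SE 0.17, edgeR adjusted p = 1.00; exact two-sided permutation p = 0.0571, where 0.0286 is the smallest that 70 relabellings can give). Igtp, which overlaps it, had 0.17, and Iigp1 -0.02. Eif2ak2, the kinase PKR that stops translation, had 10, 10.1, 9.28 and 8.25 CPM in WT and 7.73, 8.12, 6.60 and 8.59 CPM in QKO livers, a log2 change of -0.29 (SE 0.13). Mx1, of the Mx GTPases, had -0.46 (SE 0.26) on 21 to 72 counts per library, and Stat2 -0.22 (SE 0.14). All 5 sensors had changes below 0 (median -0.15), as did 4 of 5 OAS genes (median -0.19) and 4 of 5 in the IFIT and PKR group (median -0.18), while 2 of 3 in the antigen transport and chemokine group were above (median 0.17). Without WT livers 3 and 4 the median over all 48 genes was -0.12, with 7 at an unadjusted p under 0.05 and 0 called (edgeR). The share of all genes under 0.05 was not counted in that fit, so the 7 have no background. Beside these, B and plasma cell markers summed to 122 CPM in WT liver 3 and 7.38 to 14.6 CPM in the other livers, and macrophage markers to 389 to 623 CPM in WT and 415 to 519 CPM in QKO liver. Red blood cell markers summed to 101 to 272 CPM in WT and 109 to 141 CPM in QKO liver, with 5 of 5 below 0 (median -0.69) and 0 called. Of the 5, 4 had an unadjusted edgeR p under 0.05 (all genes 3.29%) and 2 were lower without overlap (all genes 1.07%). Endothelial markers had 6 of 6 above 0 (median 0.18), at 77.9 to 104.5 CPM in WT and 96.1 to 139.7 CPM in QKO liver. Their part was not tested.

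In QKO heart 45 of the 48 genes passed the filter on low counts, and Oas3, Mx1 and Cxcl10 did not. Of the 45, 0 were called in either direction, against a background of 0.165% of 16974 genes. At an unadjusted edgeR p under 0.05 there were 5 (11.1%), against 7.19% of all genes. DESeq2 and limma-voom also called 0, with 1 and 8 at an unadjusted p under 0.05. The share of all genes under 0.05 was not counted for either, so these counts have no background. The median log2 change was -0.13 (all genes -0.00), with 13 above and 32 below 0. In 3 genes (6.67%) the QKO hearts lay wholly below the WT hearts, against a background of 2.37%, and in 0 genes wholly above, against 2.3%. The sign of the median rested on WT heart 4, the library with the highest levels: without it the median was 0.043, with 24 above and 21 below 0.

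Oas2 came nearest to a change. It had 3.27, 2.61, 2.47 and 3.40 CPM in WT hearts and 1.33, 1.67, 2.02 and 2.21 CPM in QKO hearts. Every QKO heart was below every WT heart, with a log2 change of -0.69 (SE 0.18, edgeR adjusted p = 0.326). The exact two-sided permutation p was 0.0286, the smallest possible. Any gene whose groups do not overlap gets that value, so it restates the non-overlap and adds no separate support. Oas2 was also named for its low p in these same data. In the other settings the change of Oas2 was -0.82 to -0.57 with adjusted p of 0.0848 to 1. In liver Oas2 had -0.19 (SE 0.27), at 0.551 to 1.15 CPM over the 8 livers, and the difference between the tissues was -0.52 (SE 0.32, edgeR adjusted p = 1.00). Zbp1 had 0.239, 0.332, 0.459 and 0.726 CPM in WT hearts and 0.174, 0.173, 0.346 and 0.243 CPM in QKO hearts. The groups overlapped, and the log2 change was -0.95 (SE 0.41, edgeR adjusted p = 0.670). These values rest on 8 to 64 counts per WT heart and 5 to 21 counts per QKO heart. Ddx58 and Parp9 were the other genes whose groups did not overlap, at 7.47 to 8.22 against 6.65 to 7.05 CPM and at 7.88 to 8.83 against 7.14 to 7.85 CPM, with a log2 change of -0.18 (SE 0.08) each. Sp100 had -0.24 (SE 0.11, edgeR adjusted p = 0.691).

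By role, the signs in heart depended on WT heart 4 in some groups and not in others. All 4 tested OAS genes were below 0 (median -0.39), and all 4 stayed below without WT heart 4 (median -0.18). The sensors had 4 of 5 below 0 (median -0.18) and the Parp9, Dtx3l and Parp14 group 3 of 3 (median -0.11), with the same counts without it (medians -0.12 and -0.06). The IFIT and PKR group had 5 of 5 below 0 (median -0.17), and without WT heart 4 it had 3 of 5. The transcription factors had 4 of 4 below 0 (median -0.10), and without that library 3 of 4 were above. Isg15 and Usp18 were both below 0, and 1 of them without it. The 12 tested genes of the mixed antiviral group had 9 below 0, and 4 without it. The GBP and IRG GTPases had 7 of 8 above 0 (median 0.07) and the same count without it (median 0.16), led by Gbp6 with 0.32 (SE 0.18, edgeR adjusted p = 0.736). Gbp6 had 4.89, 3.98, 6.46 and 7.62 CPM in WT and 5.76, 7.83, 7.07 and 8.41 CPM in QKO hearts. Of its exon sequence, 67.3% of 75-base stretches also occur in other genes, so its counts are uncertain, as are those of Oas1a (47.6%), Ifit3 (41.1%) and Ifit3b (35.7%). Cell type markers were also compared between genotypes in heart. The macrophage markers summed to 124, 114, 115 and 142 CPM in WT hearts and 91.4, 91.2, 105 and 96.3 CPM in QKO hearts. Of 11 tested markers 11 were below 0 (median -0.46), with 0 called and 7 at an unadjusted edgeR p under 0.05 (all genes 7.19%). In 5 of them the QKO hearts lay wholly below the WT hearts (all genes 2.37%). Hepatocyte markers overlapped, at 45.0 to 278 CPM in WT and 58.4 to 143 CPM in QKO hearts, 7 of 7 below 0 (median -0.64). Cardiomyocyte markers summed to 15764.4 to 17413.5 CPM in WT and 18349.2 to 19366.1 CPM in QKO hearts. Of these 7 of 7 were above 0 (median 0.09), with 0 called and 2 wholly above (all genes 2.3%). Their part in the result was not tested.

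The test of the difference itself, the genotype effect in heart minus that in liver, called 0 of 48 genes by edgeR, with 0 at an unadjusted p under 0.05, against backgrounds of 0.00511% and 4% of 19587 genes. DESeq2 and limma-voom called 0, each with 0 at an unadjusted p under 0.05 (share of all genes not counted). The median difference was -0.05 and the median SE 0.28, and without WT heart 4 the median was 0.099. The largest in size was Zbp1 with -0.78 (SE 0.43, edgeR adjusted p = 1.00).

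The spread between libraries of 1 group was the plainest pattern within a tissue. In the heat map whole columns are shaded 1 way. The level of a library was summarised as the mean, over the tested genes, of log2(CPM + 0.5) minus the gene's mean in that tissue. WT livers 1 to 4 had 0.20, 0.04, -0.18 and 0.01, and QKO livers 0.03, -0.19, 0.02 and 0.07. WT hearts had 0.02, -0.15, -0.06 and 0.33, and QKO hearts -0.07, -0.18, 0.07 and 0.04. The same mean over all genes tested lay within -0.02 and 0.02 in every library. WT heart 4 was the highest of its group for 38 of 45 genes and the lowest for 0, against 23.2% and 22.8% of all genes. WT liver 1 was the highest for 22 of 48 (all genes 24.1%), and WT liver 3 the lowest for 23 of 48 (all genes 23.2%).

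**Figure D4:**
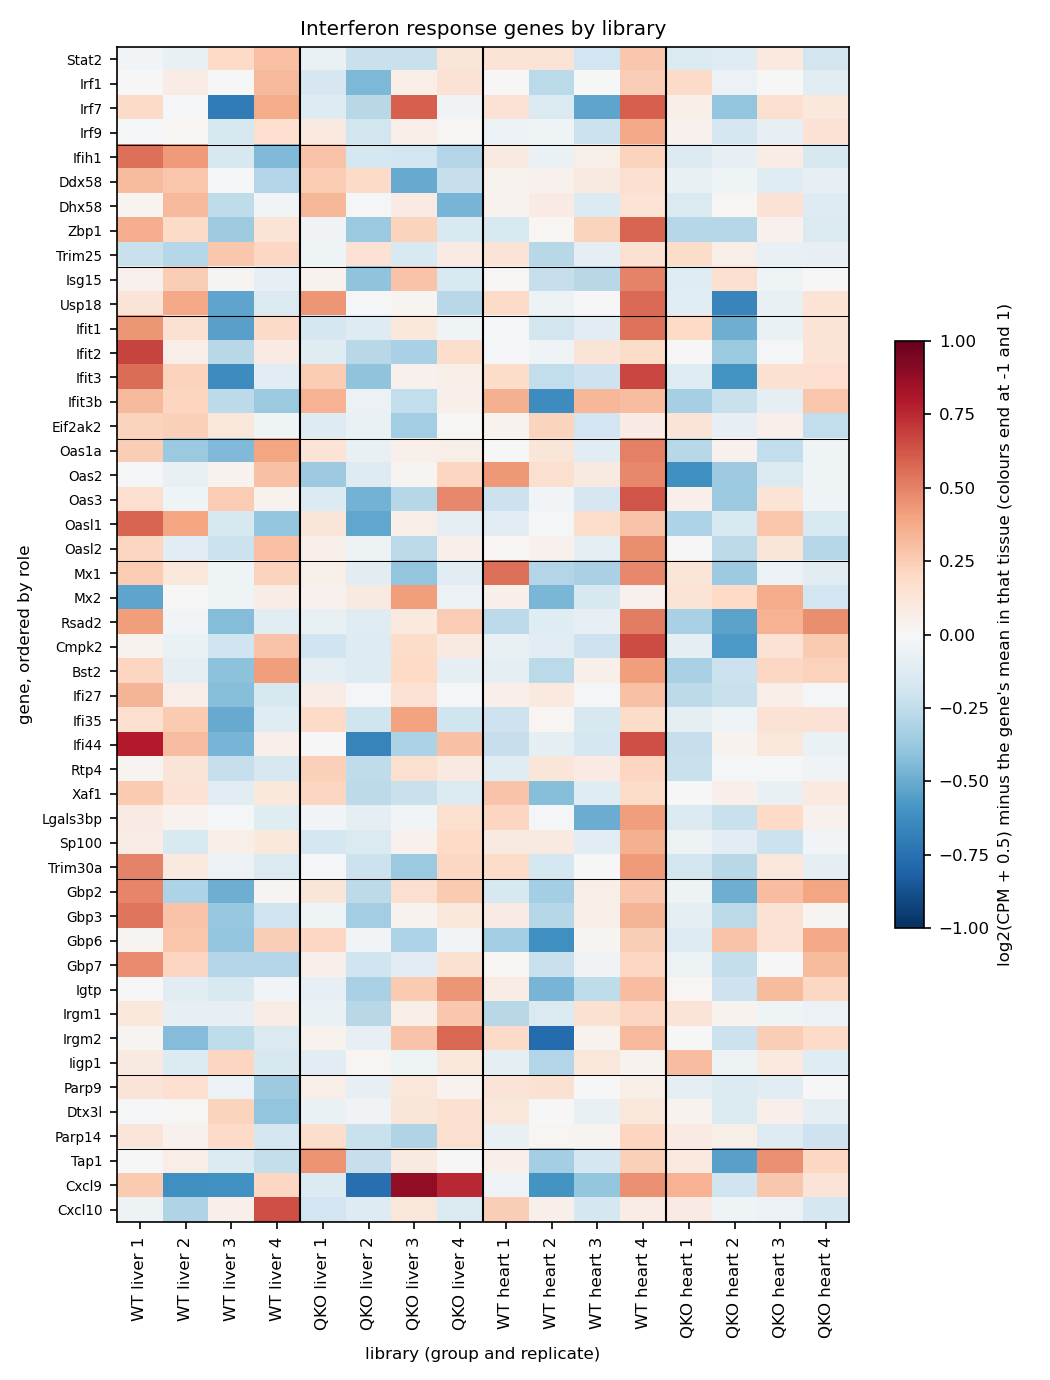
Heat map of log2(CPM + 0.5) minus the gene's mean in that tissue, with the 48 genes as rows ordered by role and the 16 libraries as columns. The column of WT heart 4 is red for most genes, and those of WT liver 3, QKO liver 2 and QKO heart 2 are mostly blue.

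Liver and heart of a mouse can be compared, since both were sampled. The second QKO mouse was low in both tissues (-0.19 in liver and -0.18 in heart). It was the lowest of its group for 25 of 48 genes in liver (all genes 20.3%) and 20 of 45 in heart (all genes 24.9%). The fourth WT mouse was not alike in its tissues, at 0.01 in liver and 0.33 in heart. The first WT mouse had 0.20 in liver and 0.02 in heart. WT heart 4 also differed in content: it had the lowest share of ribosomal RNA among WT hearts (7.20%), the most counts on these genes (25093) and the highest macrophage marker sum of its tissue (142 CPM). QKO heart 4, with 0.139% of ribosomal RNA, was at 0.04. The part of these values in the level was not tested.

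**Figure D5:**
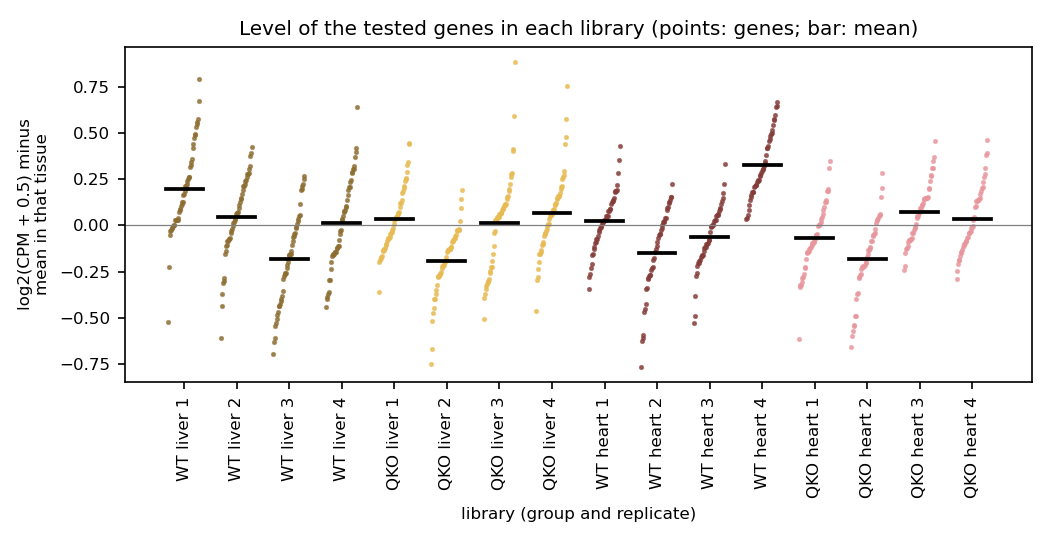
Points are the tested genes (48 in liver, 45 in heart) in each of the 16 libraries, as log2(CPM + 0.5) minus the gene's mean in that tissue (vertical axis), and the black bar is their mean. The bar of WT heart 4 is at 0.33, and the others lie between -0.19 and 0.20.

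Measured gene by gene, the range of log2 level between the 4 libraries of a group had a median over genes of 1 CPM or more of 0.62 in WT liver (45 genes), 0.49 in QKO liver (43), 0.58 in WT heart (39) and 0.41 in QKO heart (38). Over all genes of 1 CPM or more, not matched by level, it was 0.51, 0.46, 0.30 and 0.30. In WT heart 33 of 39 genes had a range above the median of all genes, and in QKO liver 26 of 43. With a bound of 5 CPM the medians were 0.61, 0.49, 0.43 and 0.37, against 0.48, 0.43, 0.24 and 0.25 over all genes. In WT liver the widest were Ifi44 (5.38, 3.70, 1.95 and 3.02 CPM), Ifit3 (7.78, 6.07, 3.13 and 4.69 CPM) and Irf7, with Ifih1 and Ifit1 next. Ifi44 and Ifit3 were highest in WT liver 1 and lowest in WT liver 3. In QKO liver the widest was Cxcl9, at 4.31, 2.65, 9.29 and 8.46 CPM, a 3.5-fold range, ahead of Ifi44, Irf7, Dhx58 and Igtp. In WT heart Irf7 (2.96, 2.32, 1.66 and 4.23 CPM) and Irgm2 (7.32, 3.53, 6.5 and 8.05 CPM) led, followed by Cxcl9, Lgals3bp and Ifit3, and each of the 5 was highest in WT heart 4. In QKO heart Tap1 (4.01, 2.39, 5.29 and 4.35 CPM), Rsad2, Gbp2, Cmpk2 and Usp18 had the widest ranges, and each was lowest in QKO heart 2. Rsad2 and its neighbour Cmpk2 kept the same order over the QKO hearts, at 4.85, 4.12, 8.03 and 8.74 CPM and at 3.28, 2.22, 3.96 and 4.34 CPM. The other groups did not share this. Over WT hearts 1 to 3 Rsad2 rose (5.08, 5.64 and 5.83 CPM) while Cmpk2 fell (3.34, 3.23 and 3.00 CPM). In WT liver and in QKO liver these genes were highest in different libraries. At the other end Ddx58 varied by 1.1-fold in WT heart and 1.06-fold in QKO heart.

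The rest of the pathway was followed in lists of ligands, receptors, regulators and further targets. Of 21 interferon genes, 15 had 0 counts in all libraries, and the others summed to 0.351 CPM or less per library. Ifnb1 had 1 count in all, and Ifng 7 in WT liver, 18 in QKO liver, 1 in WT heart and 2 in QKO heart. The receptor subunits split by arm between tissues. Ifnar1 and Ifnar2, for type I interferon, were lower in WT heart than in liver, at 10.6 ± 0.616 against 18.8 ± 2.75 and at 8.53 ± 0.810 against 25.7 ± 1.42 CPM (SD, n = 4; log2 differences of -0.81 and -1.57). Ifngr1 and Ifngr2, for interferon gamma, were higher in heart, at 16.2 ± 2.31 against 10 ± 1.14 and at 52 ± 4.09 against 6.75 ± 1.00 CPM (0.71 and 2.96). All 4 passed the edgeR threshold in WT and in QKO. Between genotypes none of these 4 passed in either tissue, with log2 changes of -0.17 to 0.17. Over 11 receptor and JAK-STAT genes, 13 negative regulators and 13 upstream sensors and adaptors, 0 were called between genotypes in either tissue by edgeR, with 0, 0 and 1 at an unadjusted p under 0.05 in liver and the same in heart. Of the 60 further interferon-induced genes, 59 were tested in liver and 52 in heart, and 0 were called, with 2 and 7 at an unadjusted edgeR p under 0.05 (all genes 3.29% and 7.19%). Between tissues in WT 37 of the 59 tested were lower in heart and 10 higher (all genes 36.9% and 35.6%), with a median of -1.05.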

How the data were processed

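The authors deposited raw counts per gene, whole numbers for 48709 Ensembl identifiers in 16 libraries. Per the labels' protocols, total RNA from flash-frozen tissue was depleted of ribosomal RNA (Ribo-Zero), made into stranded libraries and sequenced as read pairs of 75 bp to about 75 M reads. Per the submitters' processing notes, the tools were HISAT2, cutadapt, featureCounts, limma, FastQC, bcl2fastq and CASAVA, with mm10 as the build. Versions, the annotation release, the strand setting and the treatment of reads with several matches are not given in the sources used here. Genes that overlap (Igtp and Irgm2, Parp9 and Dtx3l, Gbp6 and Gm43302, Rtp4 and Gm45338 among them) or share stretches may therefore share reads.

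Identifiers were matched without version to GENCODE M21 on GRCm38 (48349 matched, 41341 with the same version), and 0 columns were left unmapped. The members and all gene lists were chosen with earlier results of these data known. Each comparison was fitted across all genes with the edgeR 4.0.16 quasi-likelihood F test under R 4.3.3, with TMM scaling, the edgeR expression filter by group and Benjamini-Hochberg adjustment over all genes tested, at a threshold of 0.05. Tissues were fitted apart for genotype, genotypes apart for tissue, and all 16 libraries together for the difference of genotype effects. SE is the size of the log2 change over the square root of F. Levels are CPM on 1 TMM scale over 16 libraries, and logs use a pseudocount of 0.5. The script was tested on simulated data.

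Liver and heart of a mouse are paired by animal (correlation of deviations 0.0395 to 0.147). Replicate numbers of WT and QKO mark different mice. The lowest chi-square per gene between 2 libraries of a group was 23.5, so no library was a copy. The text names the members with the 4 lowest p per tissue, the 6 highest levels per kb, the 6 largest tissue differences each way, the 5 widest ranges per group and the receptors. A result on an item withheld for evaluation is not reported here. Other names, those in the accounts by role included, were chosen after their values were seen. Alternatives were DESeq2 1.42.0, limma-voom (limma 3.58.1), RLE scaling, protein-coding genes alone, 2 other filters, each replicate left out, the replicate or animal as a block, a single fit of all libraries, a term for the animal number series (47 or 48), and fits without libraries that stood apart.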

Additional observations from a re-analysis of the deposited data

Results flagged for a closer look

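Dixon's test on the 4 libraries of each group, in 120 tests that covered 29 of the named genes, singled out 3 values that lay far from the other 3 of their group. Chance alone singles out about 1 in 20 groups. Bst2 had 59.3 CPM in QKO liver 3, against 48.2, 47.2 and 48.2 CPM in the other QKO livers. Ifi44, a cytoplasmic protein induced by interferon, had 3.30 CPM in WT heart 4, against 1.57, 1.78 and 1.66 CPM in the other WT hearts. Cmpk2 had 5.83 CPM in WT heart 4, against 3.34, 3.23 and 3.00 CPM. The latter pair lie in the library that was also highest for most of the genes.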

How the results depend on the processing

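No member was called between genotypes, or in the difference between tissues, under any alternative run. In heart the median change of -0.13 became 0.043 without WT heart 4 and 0.068 without both WT heart 4 and QKO heart 2 (chosen after seeing the data), and over each library left out it ran from -0.18 to 0.043. In liver it ran from -0.12 to -0.01. The tissue median in QKO, -1.43, became -1.22 with a filter of 1 CPM in 4 libraries, where low genes were left out, and -1.30 without QKO heart 2 (-1.54 to -1.30 over each library left out). Calls between tissues were 4 to 6 higher and 34 to 37 lower in WT, and 5 to 7 and 34 to 38 in QKO. For the genes named for their tissue difference or lowest p, 504 of 510 values kept their direction and side of the threshold, and 6, all of Ifit2 in WT, no longer passed. The genotype values were uncalled in the main fit, and the tissue genes were named for large differences, so a high count was likely from the start. In each tissue test the fit without heart 4 was counted again as the fit without the hearts of replicate number 4. Outside these 510 values, tissue calls of Mx1, Ifit3, Gbp7, Ifit3b and Xaf1 were lost, and of Ifi44, Cmpk2 and Gbp2 gained, in at least 1 setting. With the replicate number as a block, 0 members were called in either tissue, while calls over all genes went from 15 to 16 in liver and from 28 to 50 in heart. Correlations of same-numbered WT and QKO libraries were -0.118 to 0.161 in liver and 0.0440 to 0.408 in heart, so not every pair passed 0.1 and the numbers were not taken as pairs. In heart 7 of 8 libraries correlated best with their own number (3 of 8 in liver), a hint of pairing from the data, not the design. DESeq2 called 50 and 60 genes in all, limma-voom 13 and 26. With the animal as a block, Cmpk2 in WT and Xaf1 in QKO changed calls. Depth limits the hearts: Oas3, Mx1 and Cxcl10 had as few as 2, 2 and 1 counts in a library.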
